A study of Zea mays with 6 samples.

Results

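Protein phosphatases of type 2C (PP2Cs) are monomeric serine/threonine phosphatases, and those of the plant group called clade A are the brakes of abscisic acid (ABA) signalling. Without ABA they hold the SnRK2 kinases inactive. ABA-bound receptors of the PYR/PYL family inhibit the phosphatases, and the released SnRK2s phosphorylate bZIP transcription factors and guard cell anion channels. In many plants clade A PP2C genes are themselves induced by ABA, so that the pathway produces its own inhibitor. PP2Cs of other clades act elsewhere, for example on MAP kinases.

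The genes described here are the 10 PP2C genes of maize that the study named by identifier as responsive to dehydration, 10 of the 39634 genes listed in the files. RNA was sequenced from leaves of seedlings of the inbred line B73, about 2 weeks old. Watered plants (W) were compared with plants air dried once for 2 h (S1) and with plants sampled at the third air drying (S3), after 22 h of rehydration between treatments. Each condition had 2 biological replicate libraries, 6 in all. The labels and methods name no transgene or mutation, all plants had the B73 genotype, and seedlings were removed from soil before treatment according to the methods. Values are FPKM (fragments scaled to transcript length and to the number of mapped fragments). They are per length, so levels of different genes can be set side by side, but they keep no read counts and the depth behind each value is unknown from the files. In leaf RNA, fewer cells of a type and less RNA per cell cannot be told apart.

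The label of these genes was checked against the annotation. A RefSeq gene table matched 7 of the 10 members, each under a PP2C name: GRMZM2G159811 is PP2C13, GRMZM5G818101 is PP2C12, GRMZM2G308615 is PP2C11, GRMZM2G010855 is PP2C14, GRMZM2G059453 is PP2C3, and both GRMZM2G166297 and AC208201.3_FG002 carry the synonym PP2C20. The other 3, GRMZM2G465287, GRMZM2G342197 and GRMZM2G000603, had no match and are PP2Cs on the word of the study. According to the study's homology annotation, GRMZM2G159811 and GRMZM2G308615 resemble Arabidopsis HAI phosphatases, which are strongly ABA-induced members of clade A, and GRMZM5G818101 resembles PP2CA and ABI1, also of clade A. GRMZM2G465287 and GRMZM2G342197 resemble Arabidopsis AP2C1 and PP2C5, phosphatases of another clade that act on MAP kinases. For these and for GRMZM2G000603 the name of ABA signalling phosphatase rests on less than for the genes that resemble clade A members. For GRMZM2G010855, GRMZM2G059453, GRMZM2G166297 and AC208201.3_FG002 the RefSeq name gives the PP2C family and not a role in ABA signalling. GRMZM2G166297 and AC208201.3_FG002 share a synonym. Their sequences were not compared here, and if they were near-identical the split of reads between them would be uncertain.

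In watered leaves the 10 genes were weakly expressed. The highest was GRMZM2G059453, at 7.23 and 3.34 FPKM, and 4 members were under 1 FPKM in both libraries. GRMZM2G159811 and GRMZM2G308615 were the lowest, between 0.0143 and 0.113 FPKM. Libraries of neighbouring genes in the order of W levels overlapped in 6 of 9 pairs, so most of that order is not resolved by the replicates. No member was listed at 0 in any library.

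After the first dehydration GRMZM2G010855 was the most abundant of the 10, at 123.5 and 137.6 FPKM, followed by GRMZM2G166297 and GRMZM2G059453, whose S1 libraries overlapped. At the third dehydration GRMZM2G010855 stayed first, at 158.7 and 173.9 FPKM, and only 2 of 9 neighbouring pairs overlapped. GRMZM2G159811 was last of the 10 in W, rank 6 by mean in S1 and rank 4 in S3. GRMZM2G342197 had rank 5 in W and rank 10 in S3. As a description over the 10 genes, Spearman's rho between mean levels was -0.04 between W and S1 and -0.24 between W and S3. It was 0.94 between S1 and S3, where all 10 were chosen for their response in S1.

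**Figure D1:**
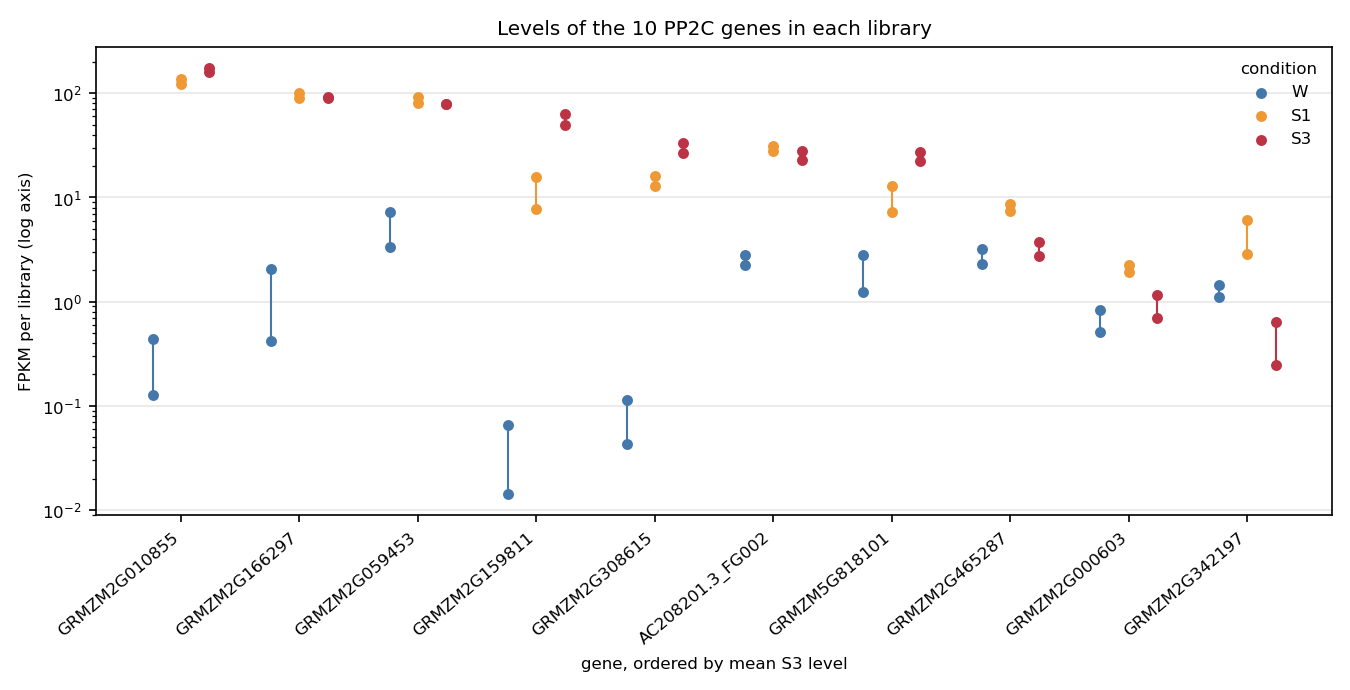
FPKM of each of the 10 PP2C genes (log axis) in every library, with points for the 2 libraries of W (blue), S1 (orange) and S3 (red) joined by a line. The 7 genes on the left lie above their W libraries in S1 and S3, while GRMZM2G465287 and GRMZM2G000603 overlap W in S3 and GRMZM2G342197 lies below it.

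The first comparison is S1 against W. The study named the members by their response in this comparison on these same libraries, so their values are a description and not independent evidence, and no p is given in their support. With limma on log2(FPKM + 1), a gene was called at a Benjamini-Hochberg adjusted p of at most 0.05 and a change of at least 2-fold. Of the 10 members 9 were called higher, 0 lower and 1, GRMZM2G000603, was not called. The last depends on the pseudocount: its S1 mean was 3.09 times its W mean, and with a pseudocount of 0.1 it was called higher (1.52). Of all 20130 genes tested, 9.04% were called, 7.51% higher and 1.54% lower. All 10 members had both S1 libraries above both W libraries, as did 31.6% of all genes, and 0 had both below, as did 31.7%. The members' median log2 fold change was 3.33, compared with -0.01 over all genes tested. GRMZM2G342197 was called in only 9 of 16 alternatives. Its call was lost without the first W library (1.11), the second W library (1.33) or the second S1 library (0.78), with either other pseudocount (1.66 and 0.95), with all genes above 0 tested and at an adjusted p limit of 0.01. That of GRMZM5G818101 was lost without the first S1 library (adjusted p = 0.0510). Both W libraries reached 1 FPKM in 5 members. The other 5 passed the filter only with the help of their stressed libraries, which favours a difference from W but does not force one.

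The summed FPKM of the 10 genes was 18.8 and 13.6 in the W libraries, 406.7 and 379.6 in the S1 pair and 470.9 and 485.6 in the S3 pair. The means were 16.2 ± 3.70, 393.2 ± 19.2 and 478.3 ± 10.4 FPKM (SD, n = 2). The libraries of the 3 conditions did not overlap, with ratios of means of 24.3 for S1 to W, 1.22 for S3 to S1 and 29.6 for S3 to W. A two-sided exact permutation test gave p = 0.333 for each, the smallest that 2 libraries against 2 allow. The members were chosen for their response in S1 on these same libraries. The ratios, the test and the shares below are therefore a description and not independent evidence. GRMZM2G010855, GRMZM2G166297 and GRMZM2G059453 together made up 77.9% and 81.3% of the sum in S1 and 69.7% and 71.2% in S3.

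The composition of this sum differed between conditions as well. GRMZM2G010855 made up 2.36% and 0.93% of it in the watered libraries, 30.4% and 36.2% after 1 dehydration and 33.7% and 35.8% after 3. GRMZM2G059453 went the other way, from 38.5% and 24.7% in the W pair through 22.7% and 21.1% in the S1 pair to 16.8% and 16.4% at S3. GRMZM2G159811 held 0.35% and 0.11% when watered, 3.83% and 2.05% at S1 and then 10.4% and 13.0% at S3. Its S3 shares were thus above its S1 shares, whereas those of GRMZM2G010855 overlapped between S1 and S3. The 3 genes without a RefSeq match together held 20.9% and 40.4% of the sum in W and 1.09% and 0.844% in S3. Against the summed FPKM of 32 PP2C genes, these 10 and 22 others found by annotation, the members made up 3.37% and 2.34% when watered, 26.9% and 25.6% at S1 and then 29.0% and 28.4% at S3. The 22 were found by words in incomplete annotation and need not be all other PP2C genes, so these are not shares of the whole family. Among them the RefSeq gene PP2C29 was matched by more than 1 gene model.

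**Figure D2:**
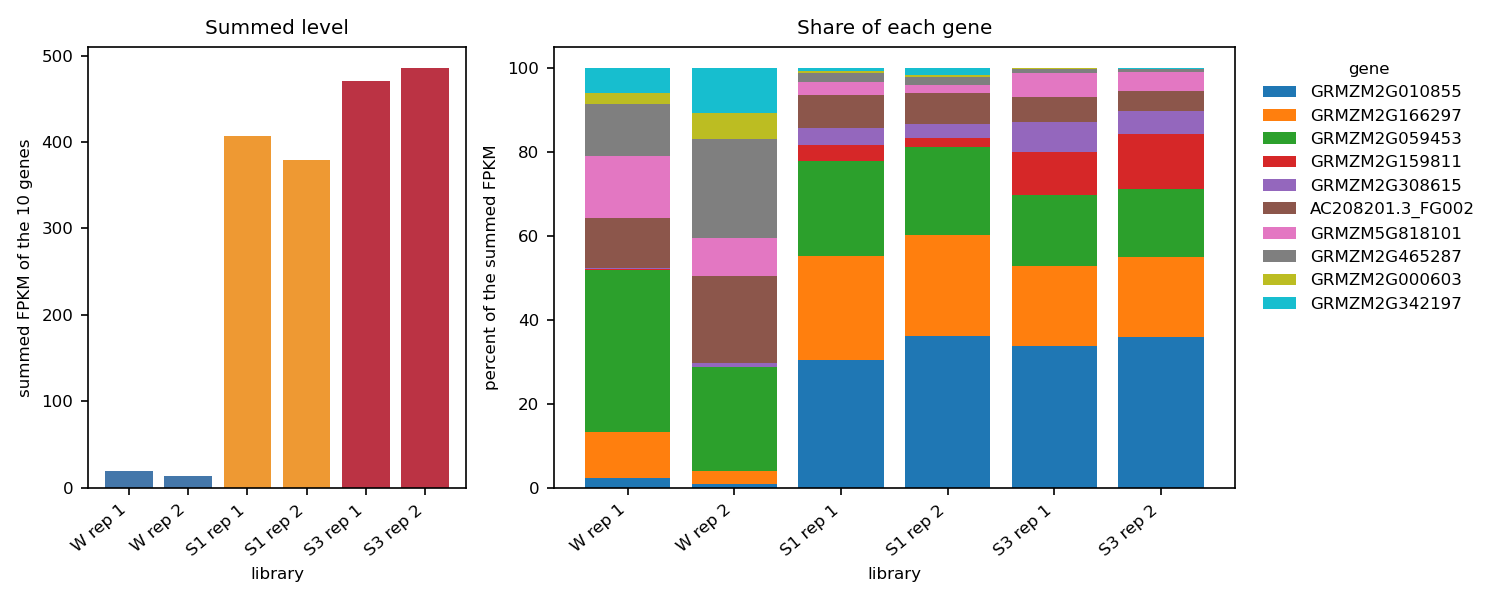
Summed FPKM of the 10 genes per library (left; bars from 0, coloured by condition) and the percent of that sum held by each gene (right; stacked bars, 1 per library). The sum was 18.8 and 13.6 FPKM in W and at least 379.6 in every stressed library, and GRMZM2G159811 went from 0.35% or less in W to 10.4% and 13.0% in S3.

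The S3 against S1 comparison asks whether a gene that responded once had a different level at the third dehydration. The study used it, on these same libraries, to sort these genes into memory classes. The p-values of members given below for this comparison are therefore a description and not independent evidence. Of the 10 members 3 were called higher in S3, 2 lower and 5 were not called, where 18.4% of all genes tested were called, 9.17% higher and 9.22% lower. The S3 libraries lay clear above those of S1 in 4 members, against 42.1% of all genes, and clear below in 5, against 28.3%. The members' median log2 change was -0.09, compared with 0.11 over all genes. The S1 libraries also helped to choose the members, and such a choice by itself favours genes that were high in S1. The S3 plants were sampled later than the S1 plants, with more time out of soil. The study reported slower water loss in previously stressed plants, so equal drying time need not be equal dehydration. The number of dehydrations cannot be told apart from these differences.

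GRMZM2G159811, a HAI-like PP2C, had 0.0653 and 0.0143 FPKM in the W pair, 15.6 and 7.77 FPKM in the S1 pair and 49.1 and 63.1 FPKM in the S3 pair. Each condition was clear of the one before. It was higher in S3 than in S1 by 2.23 on the log2 scale (SE 0.29, limma adjusted p = 0.00126) and was called in all 16 alternatives. GRMZM2G308615, the other HAI-like gene, measured 0.0430 and 0.113 FPKM when watered, 16.3 and 12.8 FPKM at S1 and 33.6 and 26.9 FPKM at S3. Its libraries did not overlap, but its log2 change of 1.01 (SE 0.19, limma adjusted p = 0.00528) was barely 2-fold. It fell under 2-fold without the second S1 library (0.85) or without the first S3 library (0.86), and with either other scaling of the libraries (0.88 and 0.90).

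GRMZM5G818101, the gene resembling PP2CA and ABI1, had W levels of 2.78 and 1.23 FPKM, S1 levels of 12.9 and 7.19 FPKM and S3 levels of 27.2 and 22.6 FPKM. It was higher in both S3 than in both S1 libraries, by 1.27 on the log2 scale (SE 0.32, limma adjusted p = 0.0176). The call was lost without the second S1 library (0.89, adjusted p = 0.105) and without the first S3 library (adjusted p = 0.0595).

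The 2 members called lower at the third dehydration were both AP2C1-like. GRMZM2G465287 went from W levels of 2.32 and 3.20 FPKM to S1 levels of 8.60 and 7.43 FPKM and back to S3 levels of 3.75 and 2.75 FPKM. The S3 libraries overlapped those of W and lay below both S1 libraries. The log2 change from S1 was -1.09 (SE 0.20, limma adjusted p = 0.00519), and it fell under 2-fold without the first S1 library (-0.997) or the second S3 library (-0.92). GRMZM2G342197 had 1.10 and 1.45 FPKM when watered, 2.90 and 6.12 FPKM at S1 and 0.245 and 0.643 FPKM at S3. Its S1 libraries differed from each other by more than its W libraries did, and both S3 libraries were below all of the other 4. It was lower in S3 than in S1, with a log2 change of -1.88 (SE 0.30, limma adjusted p = 0.00277), and was called in all 16 alternatives.

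The remaining 5 genes did not pass the test between S1 and S3. GRMZM2G010855 (PP2C14) had 0.443 and 0.127 FPKM when watered, 123.5 and 137.6 FPKM at S1 and 158.7 and 173.9 FPKM at S3. It was higher in S3 in both libraries, but its log2 change of 0.35 had a 95% interval of -0.06 to 0.75. GRMZM2G059453 (PP2C3) had 92.3 and 80.0 FPKM at S1 against 79.2 and 79.5 FPKM at S3, with a log2 change of -0.11 (interval -0.76 to 0.54). GRMZM2G166297 had 2.06 and 0.421 FPKM when watered, 101.0 and 91.0 FPKM at S1 and 90.2 and 92.4 FPKM at S3. AC208201.3_FG002 had 2.24 and 2.83 FPKM when watered, 31.4 and 27.8 FPKM at S1 and 27.8 and 22.9 FPKM at S3. The S3 levels of these 3 genes overlapped or lay just under those in S1. The log2 change was -0.07 for GRMZM2G166297 (interval -0.81 to 0.67) and -0.22 for AC208201.3_FG002 (interval -0.62 to 0.18). For these 4 genes the intervals leave out a 2-fold change, which does not show that S1 and S3 were alike. The remaining gene, GRMZM2G000603, was lower in S3 at 1.16 and 0.702 FPKM than in S1 at 2.23 and 1.92. Without its S1 libraries it would not have passed the filter, so no p is given. Its change on the log2(FPKM + 1) scale was -0.68 (interval -1.15 to -0.21), under 2-fold, but adding 1 shrinks a change at such low levels. The S3 mean was 0.448 times the S1 mean, and with a pseudocount of 0.1 the change was -1.11, also not called because of the adjusted p limit.

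**Figure D3:**
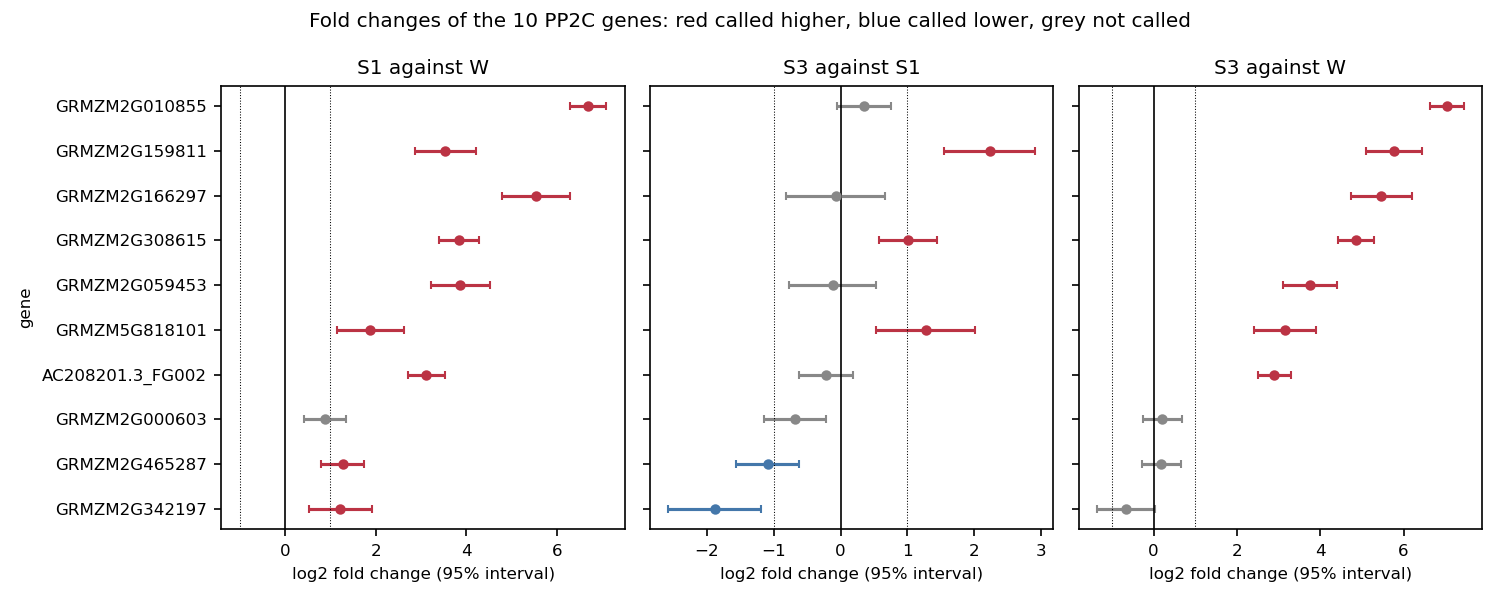
Log2 fold changes of the 10 genes on the log2(FPKM + 1) scale, with 95% intervals from the limma fit, for S1 against W, S3 against S1 and S3 against W. Dotted lines mark 2-fold, and red and blue mark genes called higher and lower, 3 and 2 of them in S3 against S1.

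S3 against W compares plants at the third dehydration with plants that had none. It shares its W libraries with the comparison on which the members were chosen, so p-values of members are not independent evidence here either. No watered library matched to S3 in time is described, so time out of soil cannot be told apart from dehydration here. Of the 10 members 7 were called higher, 0 lower and 3 were not called. Among all genes tested 22.0% were called, 13.3% higher and 8.70% lower. This split depended on scaling: 60.4% of all calls were higher in the reported fit and 47.7% with upper-quartile scaling, which moved the median of all genes by -0.20 on the log2 scale, less than the changes of the 7 called members. The members' median log2 change was 3.45, compared with 0.16 over all genes. In the 7 called members both S3 libraries were above both W libraries, as they were in 46.5% of all genes tested.

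Among the members the largest change was in GRMZM2G010855, higher by 7.03 on the log2 scale (SE 0.17). GRMZM2G159811 followed at 5.77 (SE 0.29), GRMZM2G166297 at 5.47 (SE 0.32) and GRMZM2G308615 at 4.85 (SE 0.19). These 4 passed the filter only with the help of their stressed libraries, so their changes are a description and no p is given. The values are on the log2(FPKM + 1) scale and understate genes that were near 0 in W. For GRMZM2G010855 the lowest S3 library was 358 times the highest W library, and for GRMZM2G159811 it was 753 times, from W levels that rest on very little signal. GRMZM2G059453 was higher by 3.75 (SE 0.28), GRMZM5G818101 by 3.15 (SE 0.32) and AC208201.3_FG002 by 2.90 (SE 0.17), with limma adjusted p-values of 8.59e-05, 0.000286 and 3.77e-05. All 7 were called in each of the 16 alternatives.

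The genes not called in S3 against W were the 3 without a RefSeq match. GRMZM2G465287 and GRMZM2G000603 overlapped their W libraries, with log2 changes of 0.18 (interval -0.29 to 0.65) and 0.20 (interval -0.26 to 0.67). GRMZM2G342197 was lower in S3 than in W in both libraries, at -0.67 (interval -1.36 to 0.03, limma adjusted p = 0.112), where 27.4% of all genes lay below W in both libraries. With a pseudocount of 0.1 it was called lower (-1.43, limma adjusted p = 0.0474), so whether its level at S3 was below the watered level depends on how values under 1 FPKM are weighted.

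A further 22 genes carry a PP2C description or name, and 18 of these were tested. In S1 against W 5 were called higher and 0 lower, where 9.04% of all genes tested were called. In S3 against S1 3 were higher and 5 lower, but 2 and 3 without the second S1 library, where 18.4% of all genes were called. In S3 against W 8 were higher and 1 lower, but 4 and 3 with upper-quartile scaling, where 22.0% of all genes were called in the reported fit. Their median log2 change in S3 against W was 0.47, compared with 0.16 over all genes. GRMZM2G082487 (PP2C16) had 0.740 and 0.519 FPKM when watered, 29.6 and 18.4 FPKM at S1 and 52.0 and 30.3 FPKM at S3. Its log2 change in S3 against W was 4.65 (SE 0.30). No p is given for it, as it entered the test only through its stressed libraries. GRMZM2G134628, described in the files as ABI2, a clade A phosphatase, went from W levels of 5.36 and 4.61 FPKM to 46.0 and 34.8 FPKM at S1 and 72.5 and 112.9 FPKM at S3. Another gene with that description, GRMZM2G383807, overlapped W at S3. It had 7.69 and 6.36 FPKM in W and 6.24 and 8.86 FPKM in S3 (log2 change 0.08, not called). GRMZM2G300125, described as ABI1, was not tested. GRMZM2G177386 (PP2C4) reached 464.7 and 534.5 FPKM in S3 from 37.6 and 28.6 in W. Its S3 libraries were each higher than the S3 level of any of the 10 members, so none of the 10 was the most abundant PP2C transcript at S3.

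GRMZM2G134628 and GRMZM2G177386 were higher in S3 than in W by 3.94 and 3.88 on the log2 scale (limma adjusted p = 3.91e-05 and 2.44e-05). The smallest changes among the called genes were those of GRMZM2G360455, described as isoform gamma (1.01, adjusted p = 0.00376), and GRMZM2G166035 (1.10, adjusted p = 0.00156). The only other PP2C gene called lower was GRMZM2G040452 (PP2C17), with W levels of 16.7 and 19.7 FPKM, S1 levels of 17.0 and 24.3 FPKM, S3 levels of 9.47 and 6.97 FPKM and a log2 change from W of -1.07 (limma adjusted p = 0.00682). Its levels in W and S1 overlapped, and its S3 levels were under both. Its call was lost without the second W library (-0.96) or the second S3 library (-0.87), and that of GRMZM2G360455 without the second W library (0.86), without the first S3 library (0.91) or with either other scaling (0.84 and 0.77). GRMZM2G166035 was under 2-fold with either other scaling as well (0.94 and 0.87). The 3 genes with changes of 3.88 or more are far from these limits.

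Genes named as members of the families that act directly on the phosphatases or are held by them were described in the same way. Of 12 genes named as ABA receptors, which bind the hormone and inhibit PP2Cs, 8 were tested, and 1 was called higher and 2 lower in S3 against W, where 13.3% of all genes tested were higher and 8.70% lower. GRMZM2G133613 (PYL11) had 0.590 and 0.881 FPKM when watered, 1.62 and 1.81 FPKM at S1 and 17.5 and 7.21 FPKM at S3. Its log2 change in S3 against W was 2.83 (SE 0.35). No p is given for it, as it entered the test only through its stressed libraries. The receptors that were lower were GRMZM2G144224 (PYL7) and GRMZM2G154987 (PYL3), by log2 changes of -1.95 and -1.82. PYL7 was also called lower in S1 against W (-2.45), though not without the second S1 library (-2.22), whereas for PYL11 the S1 libraries were above W with no call.

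All 7 genes named as SnRK2 kinases were tested. They need not be the whole family, and which of them are held inactive by clade A PP2Cs was not examined. In S3 against W 1 was called higher and 0 lower, where 13.3% of all genes tested were higher and 8.70% lower. In S3 against S1 1 was higher and 1 lower, where 9.17% of all genes were higher and 9.22% lower. Counts this small do not set these genes apart from all genes. GRMZM2G035809 (SnRK2.1) had 24.6 and 19.0 FPKM when watered, 21.9 and 21.8 FPKM at S1 and 112.9 and 95.8 FPKM at S3. It was higher in S3 than in W by 2.22 (SE 0.18, limma adjusted p = 0.000117), and its W and S1 libraries overlapped. GRMZM2G056732 (SnRK2.2) had the opposite order, with S1 levels of 97.6 and 86.7 FPKM, S3 levels of 22.1 and 20.6 FPKM and W levels of 20.3 and 24.1 FPKM.

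For ABA synthesis the list held 1 gene, GRMZM2G014392 (vp14), a 9-cis-epoxycarotenoid dioxygenase that makes the precursor of ABA in the step that usually limits its synthesis. It had 0.519 and 0.391 FPKM when watered, 208.3 and 150.1 FPKM at S1 and 62.0 and 68.1 FPKM at S3. It was lower in S3 than in S1, by a log2 change of -1.43 (limma adjusted p = 0.00133), and higher in S3 than in W by 5.50. Both its W libraries were under 1 FPKM, so it entered the test through its stressed libraries and no p is given against W. Among the members, GRMZM2G465287 and GRMZM2G342197 were also called lower in S3 than in S1. No gene matched the words for ABF and ABI5 bZIP factors or for guard cell anion channels, so the targets of the SnRK2s are not described here.

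**Figure D4:**
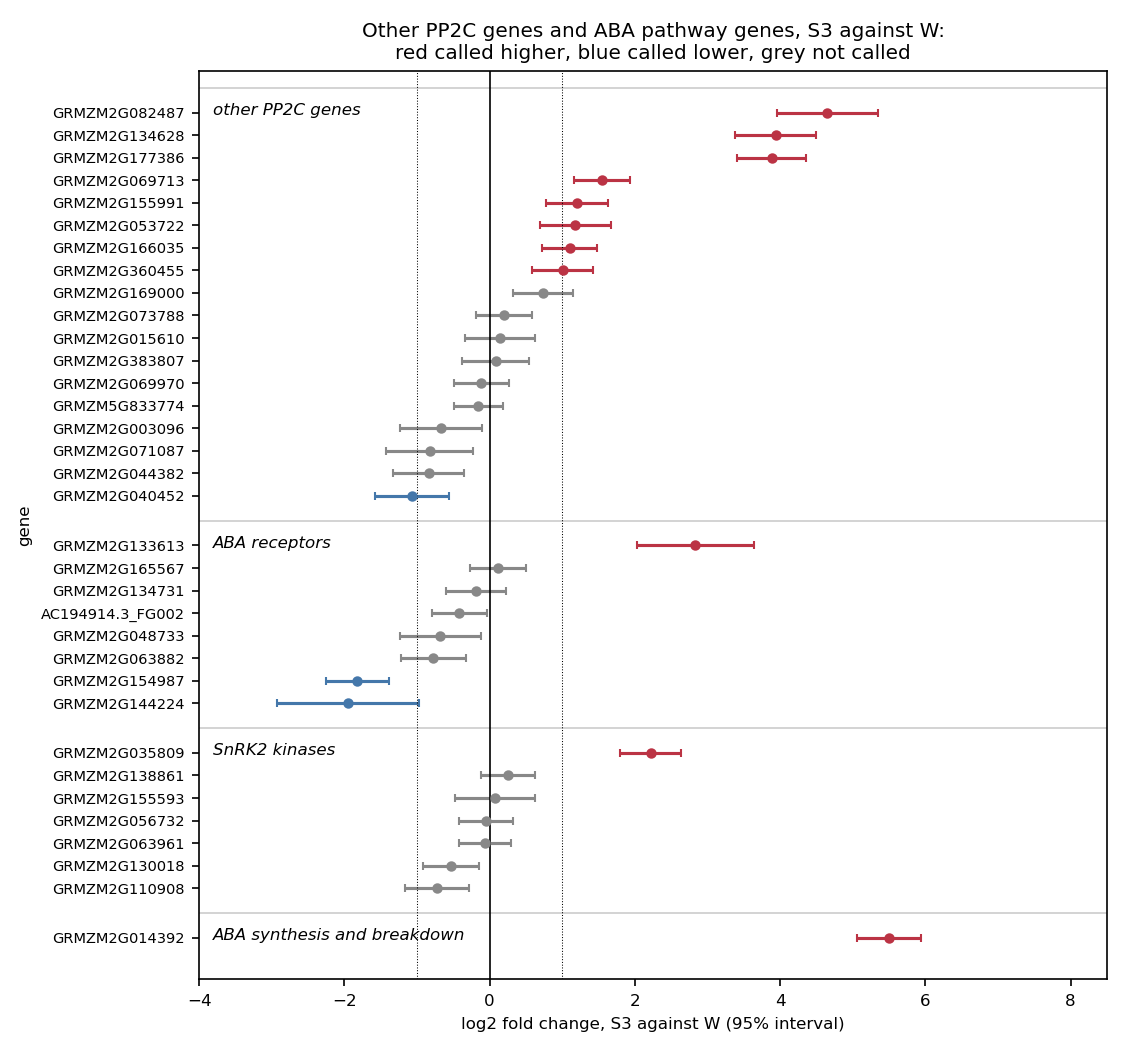
Log2 fold changes of S3 against W with 95% intervals for the 18 other PP2C genes tested, 8 ABA receptors, 7 SnRK2 kinases and the ABA synthesis gene. Red marks genes called higher and blue genes called lower: 8 and 1 of the other PP2C genes, 1 and 2 of the receptors.

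The labelled tissue was checked with 7 genes of maize leaf photosynthesis, 4 of mesophyll and 3 of bundle sheath. They were abundant in W, except that 1 of them, the pyruvate phosphate dikinase gene GRMZM2G306345, was listed at 0 in both S1 libraries and between 5635 and 11253 FPKM in the other 4, so its 0 may be a failed estimate and no fold is given. Over the 6 markers never at 0, the summed FPKM was 5411 and 3643 when watered, 4690 and 5002 at S1 and 1404 and 2306 at S3. In S3 against W 4 of these 6 were called lower, where 8.70% of all genes tested were. Among them were the phosphoenolpyruvate carboxylase gene GRMZM2G083841 (-2.92) and the bundle sheath genes GRMZM2G098520 (Rubisco small subunit, -2.99) and GRMZM2G001696 (phosphoenolpyruvate carboxykinase, -2.13). The fourth was GRMZM2G085019 (NADP-malic enzyme, -1.13), whose call was lost without the first W library (-0.92), either S1 library (-1.13) or the first S3 library (-0.90), and with the replicate block (adjusted p = 0.0864). The mesophyll genes GRMZM2G121878 (carbonic anhydrase, -0.54) and GRMZM2G129513 (NADP-malate dehydrogenase, 0.12) overlapped W in S3 and were not called. Of the genes called lower, only GRMZM2G083841 was thus of mesophyll. In S1 against W 0 of the 6 were called, where 9.04% of all genes tested were. The part of this shift in the S3 values of the members was not tested.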

How the data were processed

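In all, 6 leaf libraries, 2 each for W, S1 and S3, were analysed. Conditions and replicate numbers came from the sample labels. The authors aligned reads to B73 RefGen_v2 with bowtie 2.1.0 and tophat 2.0.8 (the submitters' processing notes name TopHat 0.12.8 and CASAVA 1.8.2), and deposited 1 FPKM value per gene and library from cuffdiff of cufflinks 2.0.2, on the Filtered Gene Set gene models. W and S1 libraries came from 1 cuffdiff run and S3 from another. The table of the whole series holds an FPKM value per condition, and its S1 value came from the second run. The ratio of S1 between runs lay no further than 0.5% from its median in 91.1% of genes, so the S3 values were multiplied by that median, 0.9933. That table also holds 4 columns of the authors' own fold changes and q-values, which were not used.

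The test took genes that reached 1 FPKM in 2 or more libraries, 20130 of 39634, all 10 members included, and 5 of the members pass on W libraries alone. The fit used limma 3.58.1 in R 4.3.3 on log2(FPKM + 1), with a mean per condition over all 6 libraries, a trend of variance with mean level, and adjustment after Benjamini-Hochberg over all genes tested. A call needed an adjusted p no higher than 0.05, a change of 2-fold or more, and a level in 1 condition over the FPKM percentile 25 of that condition, 0.165 for W, 0.183 for S1 and 0.199 for S3. The procedure was tested on simulated data. Sums were compared with exact permutation tests (scipy 1.17.1). Python 3.11.15, numpy 2.4.6, pandas 2.3.3 and matplotlib 3.10.9 were used.

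The members and lists were chosen with earlier results of these data known. Genes named are all members, the 3 other PP2C genes with the highest and the 3 with the lowest S3 against W change among those called, the called gene with the largest S3 against W change in each pathway list, and the leaf markers. PYL7, PYL3, SnRK2.2, GRMZM2G383807 and GRMZM2G300125 were named after their values were seen. Lists were matched on the deposited descriptions and on symbols and synonyms of a RefSeq table (assembly NAM-5.0, names only), which matched 19649 of 39634 genes and holds no gene descriptions, and digits were allowed after acronyms. Promoter and protein sequences were not analysed here.

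Replicate numbers mark the read length in the study's methods. Deviations of same-numbered libraries from their condition means had correlations across genes of 0.14 (W and S1), -0.09 (W and S3) and 0.06 (S1 and S3), so the numbers were not treated as pairs. Alternatives were pseudocounts of 0.1 and 2, all genes above 0, median-of-ratios and upper-quartile scaling, S3 as deposited, other thresholds, only the 4 libraries compared, a replicate block, and each library left out. Those for the ABA pathway lists were added after the data had been seen.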

Additional observations from a re-analysis of the deposited data

How the results depend on the processing

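The count of members called in S3 against S1, 5, fell to 3 with a pseudocount of 2 and ranged from 3 to 5 when each library was left out, with 3 without the second S1 library and 3 without the first S3 library. The count of other PP2C genes called in S3 against S1, 8, ranged from 5 to 8 when each library was left out. The ABA pathway lists held 5 calls in S3 against W, 8 with no fold-change threshold and 5 to 6 with each library left out. With each library left out, members called ranged from 8 to 9 in S1 against W and were 7 each time in S3 against W, and other PP2C genes called ranged from 5 to 6 and from 7 to 10. A pseudocount of 0.1 gave 8 members and 11 other PP2C genes called in S3 against W, and no fold-change threshold gave 10 members in S1 against W and 12 other PP2C genes in S3 against W. The ratio of the summed FPKM of S3 to W, 29.6, ranged from 25.5 to 35.3 with each library left out and was 25.2 with upper-quartile scaling. Of 299 recomputed fold changes of single members in S3 against S1 and S3 against W, 286 stayed on the same side of the call threshold. In 12 a call was lost, in 1 a call was gained, and 0 called changes were reversed. The 286 include changes called in neither fit, whose sign was free to differ. For GRMZM2G166297 in S3 against S1 it did, from -0.07 to 0.005 without the first S1 library. With the replicate number as a block, members called were 9, 5 and 7 in S1 against W, S3 against S1 and S3 against W, as without it. The block changed no call of a member, another PP2C gene or an ABA pathway gene. The fit of only the 4 libraries compared gave no S3 against W value for GRMZM2G000603, which it filtered out. With 2 libraries per condition and no read counts, changes near 2-fold and levels under 1 FPKM are the least certain.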
